A study of Mus musculus with 6 samples.

Results

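Glutathione-dependent enzymes and metallothioneins were followed as a set of 10 genes taken by name from the 24935 genes of the deposited table. The set holds the glutathione peroxidases Gpx1, Gpx3, Gpx4 and Gpx8, the glutathione transferases Gstm1, Gstm5 and Gstp1, and the metallothioneins Mt1, Mt2 and Mt3. Each name matched 1 row. The RNA came from the left hippocampus of C57BL/6 mice at P14. Newborn pups were kept with their dams in 85% O2 in a normobaric chamber from P2 to P14 (hyperoxia, n = 3) or in room air (air, n = 3), with 1 library per mouse and no genetic modification named. The sex of each mouse was not given. PolyA-selected RNA was sequenced, and values are normalized read counts, that is, reads per gene divided by 1 scaling factor per library. The libraries held between 30384052 and 38746972 reads on genes. Libraries are called air 1 to 3 and hyperoxia 1 to 3 after the numbers of the deposited columns, which do not name an animal. Which libraries are air and which hyperoxia rests on those column names alone. It is in doubt whether they carry the right groups, because the sources on the study do not all give transcripts the same direction, and no gene was targeted that could check the labels. Transcripts such as Ddt, Grasp and Mal, which the authors' published tables list as higher in hyperoxia, were lower under the column names. The authors' results text gives ARC, EGR1 and C/EBP transcripts as decreased, while their table gives them as increased. Their staining found less CNPase, a myelin protein, in CA1 of hyperoxia mice. Under the column names 7 of 8 oligodendrocyte markers were called lower, while Cnp, the gene of CNPase, was not called. If the names were exchanged, every direction given here would turn, while the sizes of the differences and their p-values would stay.

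Glutathione is the main small thiol of the cell. Glutathione peroxidases spend it to reduce hydrogen peroxide and lipid hydroperoxides, and glutathione transferases attach it to reactive electrophiles so that these can be exported. Metallothioneins are small cysteine-rich proteins that bind zinc and copper and can also react with oxidants. In brain, Mt1 and Mt2 are made mostly by astrocytes, and Mt3 is a form enriched in the nervous system that was first described as a growth inhibitory factor for neurons.

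All 10 members passed the filter on low values and were tested. At P14, with the groups as the columns name them, 3 of the 10 members were lower in hyperoxia, 0 were higher and 7 did not pass the test. The 3 that fell were the metallothioneins Mt1, Mt2 and Mt3. The test was limma on log2(value + 1), with the p-value adjusted over all 17778 genes tested and a threshold of 0.05. Of all genes tested, 30.5% were called in either direction, 15.6% lower and 14.9% higher, so the share of members called in either direction is close to that of all genes. The median log2 fold change was -0.13 over the members and -0.01 over all genes tested. Both groups are whole tissue, in which fewer cells of a type and less RNA per cell cannot be told apart.

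**Figure D1:**
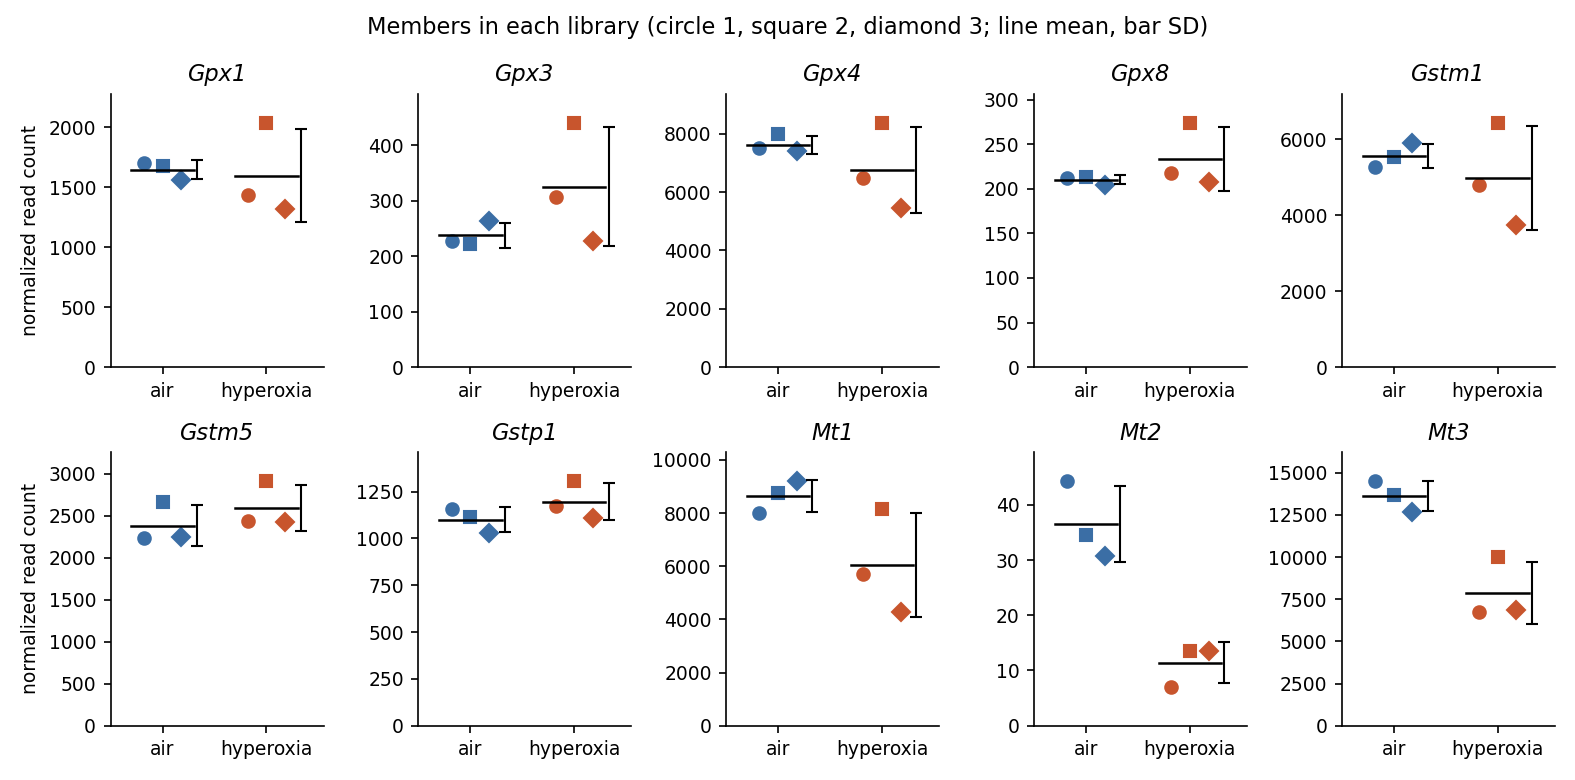
Normalized read count (vertical axes from 0) of each member in the 3 air libraries (blue) and the 3 hyperoxia libraries (orange), with the marker shape giving the library number, a line at the mean and a bar of 1 SD. Mt2 and Mt3 were lower in each hyperoxia library than in each air library, and the square for hyperoxia 2 stands highest of the hyperoxia libraries in all 10 panels.

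Mt3 was the most abundant member per kilobase of exon and fell in hyperoxia. Its normalized read count was 14492, 13686 and 12701 in air 1 to 3 and 6733, 9978 and 6874 in hyperoxia 1 to 3. Each hyperoxia library lay under each air library, with hyperoxia 2 nearest to them. The mean went from 13626 ± 897 to 7862 ± 1834 (SD, n = 3 each). On the log2 scale the fold change was -0.82 (SE 0.14, 95% interval -1.13 to -0.50, limma adjusted p = 0.00293), or 0.568 of the air level. Among the 16 alternative settings, Mt3 was called in 16, with no log2 fold change above -0.61. That value came from a correction for transcript length and GC content. Groups that did not overlap were found for 2 of the 10 members, Mt2 and Mt3, and for 46.1% of all genes tested, 23.8% with hyperoxia lower. For both, the exact two-sided permutation test over libraries gave p = 0.1, which is the smallest p that this design allows.

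Mt1 is the classical metal-inducible metallothionein and fell less firmly. The air libraries held 8003, 8755 and 9194 normalized counts, and the hyperoxia libraries 5716, 8164 and 4292. Hyperoxia 2 lay inside the air range, and the groups overlapped. The mean went from 8651 ± 602 to 6057 ± 1958 (SD, n = 3 each), which is a log2 fold change of -0.56 (SE 0.19, 95% interval -0.98 to -0.14, limma adjusted p = 0.0474). The call was lost in 9 of the 16 alternative settings. It was lost without air 1 (adjusted p = 0.099), air 2 (adjusted p = 0.129), air 3 (adjusted p = 0.134), hyperoxia 1 (adjusted p = 0.124) or hyperoxia 3 (adjusted p = 0.0828), all from limma. Without hyperoxia 2, the highest hyperoxia library, the log2 fold change could only fall, and stood at -0.80 with a limma adjusted p of 0.000255. The direction was lower in hyperoxia under each of the 16 settings.

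Mt2 showed the widest fold change on few reads. Its normalized counts were 44.3, 34.6 and 30.8 in air and 7.07, 13.6 and 13.5 in hyperoxia. These values stand for 47, 34 and 30 reads in air and 8, 12 and 14 reads in hyperoxia, so that counting error alone is wide. The groups did not overlap. From air to hyperoxia the mean went from 36.6 ± 6.94 to 11.4 ± 3.74 (SD, n = 3 each), and the log2 fold change was -1.64 (SE 0.32, 95% interval -2.36 to -0.91, limma adjusted p = 0.00546). The 15 alternatives that tested Mt2 each called it, and a filter at a mean of 50 left it untested.

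The annotation limits how the level of Mt2 can be read. In GENCODE M21 (GRCm38) Mt2 spans chr8:94172664-94173568 on the plus strand, and an antisense gene, Gm45774, spans chr8:94170748-94173412 on the minus strand. Of the 588 exonic bases of Mt2, 432 (73.5%) also lie in an exon of Gm45774. A counter that ignores strand sets aside reads that fall in both genes. The library kit keeps strand, but no source used here says whether the counting used it. In air, Mt2 stood at 62.2 normalized counts per kilobase of exon against 6943 for its neighbour Mt1, so the Mt2 level is not read here as the abundance of its RNA. Gm45774 itself held 17.9, 22.4 and 30.8 normalized counts in air and 10.6, 23.8 and 26.1 in hyperoxia, which overlap, and was not called (log2 fold change -0.28, limma adjusted p = 0.596). The part of this overlap in the Mt2 difference was not tested.

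**Figure D2:**
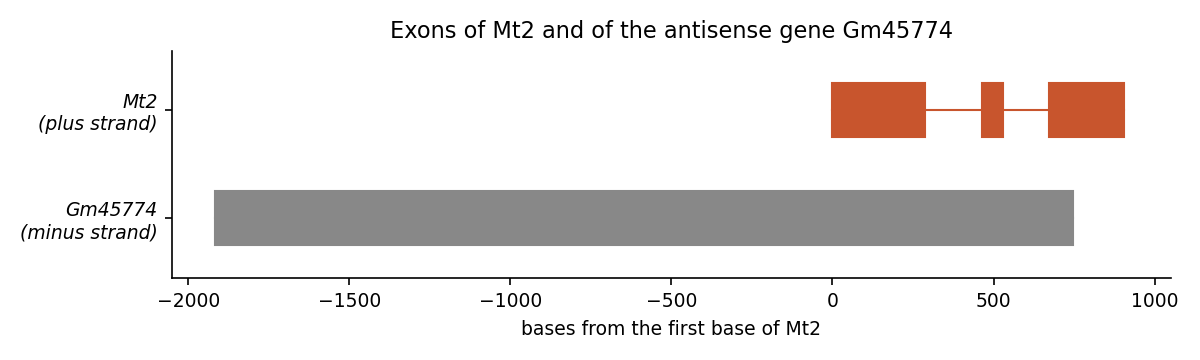
Exons of Mt2 (top, orange) and of the antisense gene Gm45774 (bottom, grey) by distance in bases from the first base of Mt2, drawn to scale as boxes, with introns as lines. The single Gm45774 exon runs from -1916 to 748 and covers the exons of Mt2 up to that point, 432 of 588 bases.

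The 3 metallothionein genes sit in 1 cluster on chromosome 8, Mt3 at chr8:94152607-94154146, then Mt2, then Mt1 at chr8:94179082-94180327, all on the plus strand. As they moved in the same direction, their RefSeq promoters are shown, 250 bases before to 50 bases after the annotated start on GRCm38.p6. Capitals mark matches to the core of the metal response element, the motif bound by the zinc sensor Mtf1, searched as TGCACNC and TGCGCNC on both strands. The windows are chr8:94178839-94179138 for Mt1, chr8:94172368-94172667 for Mt2 and chr8:94152357-94152656 for Mt3, each on the plus strand and written 5′ to 3′.
Mt1: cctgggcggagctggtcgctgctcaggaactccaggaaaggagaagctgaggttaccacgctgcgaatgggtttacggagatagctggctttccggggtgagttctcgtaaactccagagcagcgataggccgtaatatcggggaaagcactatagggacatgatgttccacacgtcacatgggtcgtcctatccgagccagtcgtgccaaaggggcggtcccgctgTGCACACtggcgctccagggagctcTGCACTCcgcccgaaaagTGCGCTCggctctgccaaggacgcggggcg
Mt2: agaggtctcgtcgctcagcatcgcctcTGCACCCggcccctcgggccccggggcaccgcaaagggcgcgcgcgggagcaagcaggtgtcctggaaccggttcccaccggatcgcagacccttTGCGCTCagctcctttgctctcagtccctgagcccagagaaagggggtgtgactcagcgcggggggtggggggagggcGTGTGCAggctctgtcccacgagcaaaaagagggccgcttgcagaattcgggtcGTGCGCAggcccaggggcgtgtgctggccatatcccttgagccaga
Mt3: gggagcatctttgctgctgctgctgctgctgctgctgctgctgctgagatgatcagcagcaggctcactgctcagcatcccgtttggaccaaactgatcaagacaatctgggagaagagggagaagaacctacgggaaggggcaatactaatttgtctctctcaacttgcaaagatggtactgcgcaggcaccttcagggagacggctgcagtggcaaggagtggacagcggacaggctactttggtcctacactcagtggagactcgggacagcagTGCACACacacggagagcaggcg
The Mt1 window held 3 matches, the Mt2 window 4 and the Mt3 window 1. At least 1 match was present in 25.7% of the 32851 promoters of this length, at least 3 in 1.97% and at least 4 in 0.517%. Gstm1 and Gstm5 also held a match, so that 5 of the 10 members had one. The core of the antioxidant response element, searched as TGACNNNGC on both strands, was found in the windows of Mt2 and Gstm5 and in 12.4% of all promoters. None of the windows of Gpx1, Gpx3, Gpx4, Gpx8 and Gstp1 held either motif. These matches describe letters in a window and were not tied to binding.

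Summed over the family, the metallothioneins held 22539, 22476 and 21925 normalized counts in air and 12456, 18155 and 11180 in hyperoxia. The sums did not overlap, and their mean went from 22313 ± 338 to 13930 ± 3714 (SD, n = 3 each). An exact two-sided permutation test gave p = 0.1, the smallest this design allows. Among single genes tested, 46.1% had groups that did not overlap, 23.8% with hyperoxia lower. Mt3, at a mean of 13626 in air, weighed most in the sum, so the sum is not separate from its result. As a share of all reads on genes the metallothioneins took 0.0618% ± 0.000713 under air and 0.0410% ± 0.0104 under hyperoxia (SD, n = 3 each). The ratio of Mt3 to Mt1 was 1.81, 1.56 and 1.38 in air and 1.18, 1.22 and 1.60 in hyperoxia, with overlapping groups (exact two-sided permutation test, p = 0.3, n = 3 per group).

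**Figure D3:**
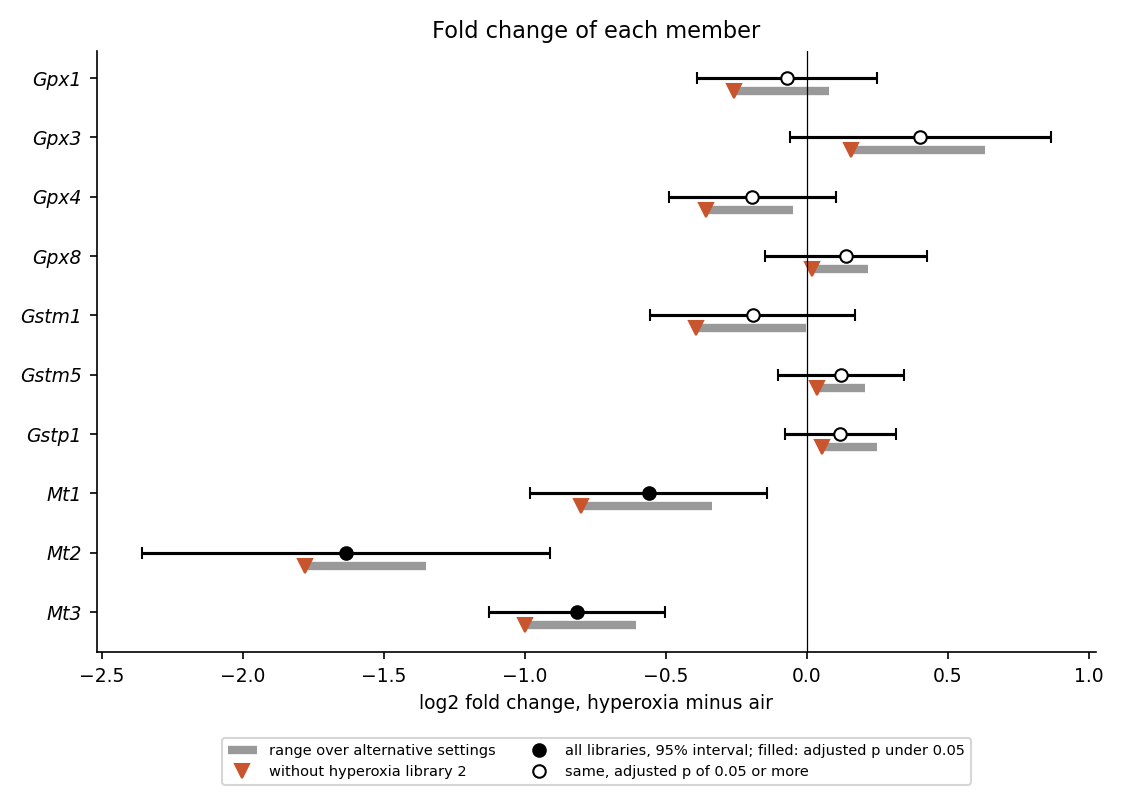
Log2 fold change of each member, hyperoxia minus air (horizontal axis), as a point with its 95% interval from limma, filled where the adjusted p is under 0.05. The grey bar spans the alternative settings and the orange triangle is the value without hyperoxia 2. The 3 metallothioneins are filled and lie between -1.64 and -0.56, and the intervals of the 7 enzymes include 0.

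The glutathione peroxidases did not pass the test in either direction. Gpx4, which reduces phospholipid hydroperoxides within membranes and restrains ferroptosis, was the most abundant of them. It read 7505, 7977 and 7395 normalized counts in air and 6469, 8373 and 5468 in hyperoxia. Hyperoxia 2 was above each air library while the other 2 hyperoxia libraries were below them. This is a log2 fold change of -0.19 (95% interval -0.49 to 0.10, limma adjusted p = 0.295). Without hyperoxia 2, the highest hyperoxia library, the value could only fall, and Gpx4 was called at -0.36 with a limma adjusted p of 0.00358. Of the windows of 75 bases in its longest transcript, 55.3% also occur in the pseudogene Gpx4-ps2, so its reads may have been split between them.

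Gpx1, the cytosolic and mitochondrial enzyme for hydrogen peroxide, held 1707, 1678 and 1559 normalized counts in air. The hyperoxia libraries held 1436, 2039 and 1318, that is, 1 above and 2 below the air range. The log2 fold change was -0.07 (95% interval -0.39 to 0.25, limma adjusted p = 0.734). Its sign depended on the setting. Without hyperoxia 2 it was -0.26 (limma adjusted p = 0.0136), and without hyperoxia 3 it was 0.05 (limma adjusted p = 0.781).

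Gpx3 encodes the peroxidase secreted into extracellular fluid. It held 227, 222 and 264 normalized counts in air and 307, 440 and 228 in hyperoxia, where hyperoxia 3 fell inside the air range. The log2 fold change was 0.40 (95% interval -0.06 to 0.87, limma adjusted p = 0.167). It was called higher without hyperoxia 3, at 0.63 with a limma adjusted p of 0.0167, and was 0.16 without hyperoxia 2 (limma adjusted p = 0.404). Markers of fibroblasts, a cell type of the meninges, and of choroid plexus were uneven over the same libraries. The summed fibroblast markers were 13219, 14760 and 9432 in hyperoxia 1 to 3, and the summed choroid plexus markers 726, 498 and 8296, with Ttr at 7454 in hyperoxia 3. In air 1 to 3 the fibroblast sums were 9092, 8029 and 7305 and the choroid plexus sums 687, 565 and 1435. The choroid plexus sum was highest in hyperoxia 3, where Gpx3 was lowest of the hyperoxia libraries. Their part in the Gpx3 values was not tested.

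Gpx8, a peroxidase of the endoplasmic reticulum that carries cysteine in place of selenocysteine, held 212, 214 and 204 normalized counts in air and 217, 274 and 208 in hyperoxia. Its groups overlapped, and the log2 fold change was 0.14 (95% interval -0.15 to 0.43, limma adjusted p = 0.437). No alternative setting called it. Summed over the 4 peroxidases, the normalized counts averaged 9721 ± 339 for air and 8925 ± 2000 for hyperoxia (SD, n = 3 each).

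The glutathione transferases also did not pass the test. Gstm1, the main mu-class form in these libraries, held 5266, 5517 and 5887 normalized counts in air and 4780, 6430 and 3730 in hyperoxia. As for Gpx4, hyperoxia 2 was above the air range and the other 2 libraries were below it. Gstm1 thus stood at a log2 fold change of -0.19 (95% interval -0.56 to 0.17, limma adjusted p = 0.392), and without hyperoxia 2 it was -0.39 with a limma adjusted p of 0.00718. Gstm1 shares 14.8% of its windows of 75 bases with other genes, most of them with the pseudogene Gstm2-ps1.

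Gstm5 is a further mu-class form. Its normalized counts were 2232, 2663 and 2245 in air and 2441, 2911 and 2421 in hyperoxia, with overlapping groups. The log2 fold change was 0.12 (95% interval -0.10 to 0.35, limma adjusted p = 0.38). Of its 1278 exonic bases, 178 lie in exons of the antisense gene 4933431E20Rik, which was not called (2277 ± 84.7 in air and 2309 ± 61.2 in hyperoxia, SD, n = 3).

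Gstp1, the pi-class form, held 1159, 1115 and 1027 normalized counts in air and 1176, 1305 and 1108 in hyperoxia. The groups overlapped at hyperoxia 3. Its log2 fold change was 0.12 (95% interval -0.08 to 0.32, limma adjusted p = 0.331). Gstp1 was called under 1 setting, a correction for transcript length and GC content, at 0.25 with a limma adjusted p of 0.0177. It shares 57.7% of its windows of 75 bases with Gstp2, so a read from one could be given to either or set aside. The 3 transferases summed to 9037 ± 336 for air and 8767 ± 1724 for hyperoxia (SD, n = 3 each).

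Hyperoxia 2 stood apart across the set. All 10 members were highest of the hyperoxia libraries there, Mt2 by less than 1 normalized count, and for the 7 enzymes it was the highest of all 6 libraries. Among all genes tested, 40.2% were highest of the hyperoxia libraries in hyperoxia 2. The members are short transcripts, with median lengths between 449.5 and 905.5 bases, and lie in the 2 shortest of 5 length classes of equal size among the genes tested, where that share was 52.0% and 50.9%. The median excess of hyperoxia 2 over the mean of the other 2 hyperoxia libraries was 0.52 on the log2 scale for the members and 0.09 and 0.08 in those classes. Short genes were also called lower more often, 18.6% and 19.3% in the 2 shortest classes against 10.2% in the longest. Without hyperoxia 2, 6 members were called lower, the 3 metallothioneins with Gpx1, Gpx4 and Gstm1, against 22% of all genes called lower under that setting. Hyperoxia 2 was picked out after its values were seen. As the highest hyperoxia library for all 10 members, it could only lower their fold changes when left out. The calls without it are therefore not a separate test of the members. With all libraries, a correction for transcript length and GC content left Gpx4 at -0.05, Gstm1 at -0.08 and Gpx1 at 0.08, none of them called. Hyperoxia 2 also held the fewest reads on genes of the 6 libraries, 30384052. The part of depth, transcript length or RNA quality in the pattern of hyperoxia 2 was not tested.

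**Figure D4:**
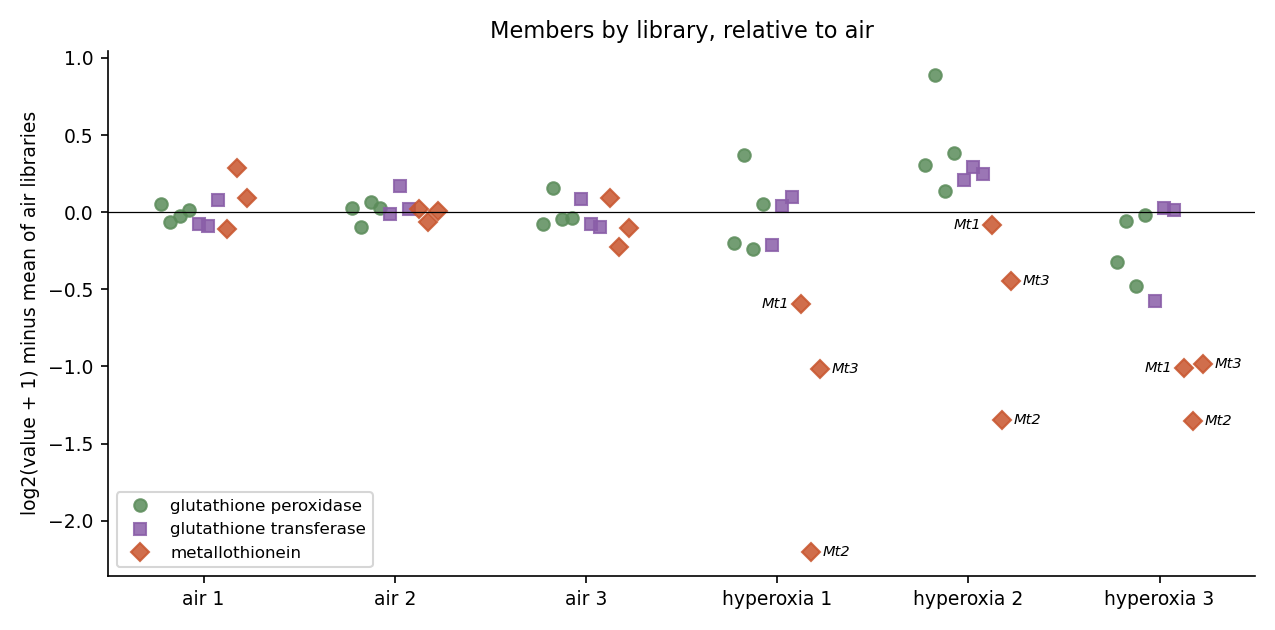
Log2(value + 1) of each member minus its mean over the air libraries (vertical axis) in each of the 6 libraries, with circles for peroxidases, squares for transferases and diamonds for metallothioneins. The metallothioneins lie below 0 in all 3 hyperoxia libraries, and the enzymes lie above 0 in hyperoxia 2.

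Ordered by normalized count per kilobase of merged exon in air, the members ran from Mt3 at 12782 through Mt1 at 6943, Gpx4 at 4423, Gstm1 at 3772, Gstm5 at 1862, Gpx1 at 1144, Gstp1 at 711, Gpx8 at 200.3 and Gpx3 at 131 to Mt2 at 62.2. No neighbours in this order overlapped between their lowest and highest air libraries. In hyperoxia Mt3 still had the highest mean, at 7375 per kilobase, but some neighbours overlapped. The range of Mt1 (3445 to 6552) overlapped those of Mt3 (6316 to 9360) and Gpx4 (3172 to 4857). Gpx4 also overlapped Gstm1 (2532 to 4365), and Gpx8 (198 to 261) overlapped Gpx3 (126 to 243). The merged exon length includes exons of minor transcripts, so these levels are approximate. Reads of Mt2 may be missing where Gm45774 overlaps it, and reads of Gpx4 and Gstp1 where other genes share their sequence. The places of these members, above all that of Mt2, are therefore not read as the abundance of their RNA.

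Around the members, the supply of glutathione was mixed, with directions again as the column names give them. Of 14 genes for glutathione synthesis and recycling, 1 was higher and 3 were lower, with a median log2 fold change of -0.01. Of all genes tested, 14.9% were called higher and 15.6% lower, the shares to set beside the counts of each list below. Slc7a11, which imports cystine, rose from 1098 ± 56.8 to 1798 ± 234 (SD, n = 3), a log2 fold change of 0.70 (limma adjusted p = 0.00156). Gclc, the catalytic subunit of the rate-limiting ligase of glutathione synthesis, fell from 2854 ± 79.0 to 1999 ± 35.1 (SD, n = 3), at -0.51 (limma adjusted p = 0.00098). Both were called under all 16 alternative settings. Gss, glutathione synthetase, fell by 0.40 on the log2 scale (limma adjusted p = 0.0109), a call lost without air 2 (adjusted p = 0.0594). Slc1a1, a glutamate and cysteine transporter, stood at -0.22 (limma adjusted p = 0.0293), which 5 settings ended, 4 of them the removal of any air library or of hyperoxia 1, with adjusted p up to 0.14.

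Among the other transferases, 16 of the 19 in the table were tested, of which 0 were higher and 2 lower. Gstm7, another mu-class gene, fell from 573 ± 8.28 to 375 ± 66.0 (SD, n = 3), a log2 fold change of -0.63 (limma adjusted p = 0.0055) that all 16 settings called. Gstt2, of the theta class, stood at -0.52 (limma adjusted p = 0.0424) and was called in 8 of 16, with adjusted p up to 0.143. It was lost without any 1 of air 1, air 2, air 3, hyperoxia 1 and hyperoxia 3. Of the other peroxidases only Gpx7 was tested, at 0.28 (limma adjusted p = 0.09). Among 6 glutaredoxins and glyoxalases, Hagh, which hydrolyses the glutathione adduct made from methylglyoxal, was the 1 lower gene at -0.38 (limma adjusted p = 0.0115), lost without air 1 or air 2 with adjusted p up to 0.0608.

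Gpx1, Gpx3 and Gpx4 carry selenocysteine, so its machinery was examined. Of 10 genes, 3 were higher and 1 was lower. Sepsecs, which makes selenocysteine on its tRNA, stood at 0.32 (limma adjusted p = 0.0183), and the selenophosphate synthetase genes Sephs1 and Sephs2 at 0.22 (limma adjusted p = 0.0394) and 0.31 (limma adjusted p = 0.04). Scly, which frees selenium from selenocysteine, fell by 0.47 on the log2 scale (limma adjusted p = 0.0162). None of these 4 held in all 16 settings: Sepsecs was called in 12, Sephs1 in 8, Sephs2 in 11 and Scly in 13, and each lost its call without air 1, air 2 or hyperoxia 1. Sephs1 and Sephs2 also lost it without air 3, and Sephs1 without hyperoxia 3, and over these libraries left out the limma adjusted p reached 0.145. Under the correction for transcript length and GC content Sepsecs and Sephs1 were not called either, and Sepsecs went down to 0.14 (limma adjusted p = 0.188).

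Genes for zinc handling moved in both directions. Of 24 tested, which comprised Mtf1 and zinc transporters, 6 were higher and 5 lower, with a median log2 fold change of 0.07. Among all genes tested, 14.9% were called higher and 15.6% lower. Mtf1 itself was not called (-0.08, 95% interval -0.32 to 0.15, limma adjusted p = 0.583). Slc30a4, a zinc exporter into vesicles, rose from 1097 ± 42.1 to 1808 ± 230.2 (SD, n = 3), at 0.71 (limma adjusted p = 0.00132). Slc39a8, a zinc and manganese importer, rose by 0.68 (limma adjusted p = 0.00166). Slc39a12, a zinc importer of brain, stood at 0.27 (limma adjusted p = 0.0195), a call lost in 5 settings, among them without any air library or without hyperoxia 1, with adjusted p up to 0.0878. Under the length and GC correction it went down to 0.15 (limma adjusted p = 0.207).

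Among the lower genes, the zinc importer Slc39a2 read 475, 528 and 534 normalized counts in air and 237, 219.6 and 243 in hyperoxia. Each hyperoxia library lay under each air library. Its log2 fold change was -1.13 (limma adjusted p = 0.000286). Slc39a6 fell by 0.48 (limma adjusted p = 0.00294). Slc30a2, a vesicular exporter, stood at -0.56 (limma adjusted p = 0.013), which was lost without air 1 or air 2, with adjusted p up to 0.0561. Slc30a4, Slc39a8, Slc39a2 and Slc39a6 were called under all 16 settings. Slc39a7, named here after its values were seen, had the widest change of the list, at -1.58 (limma adjusted p = 0.0204), on 95.1, 63.1 and 65.7 normalized counts in air and 25.6, 11.3 and 46.3 in hyperoxia. It was called in 11 of 16 settings, and its call was lost without any air library or without hyperoxia 1, with adjusted p up to 0.0943.

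**Figure D5:**
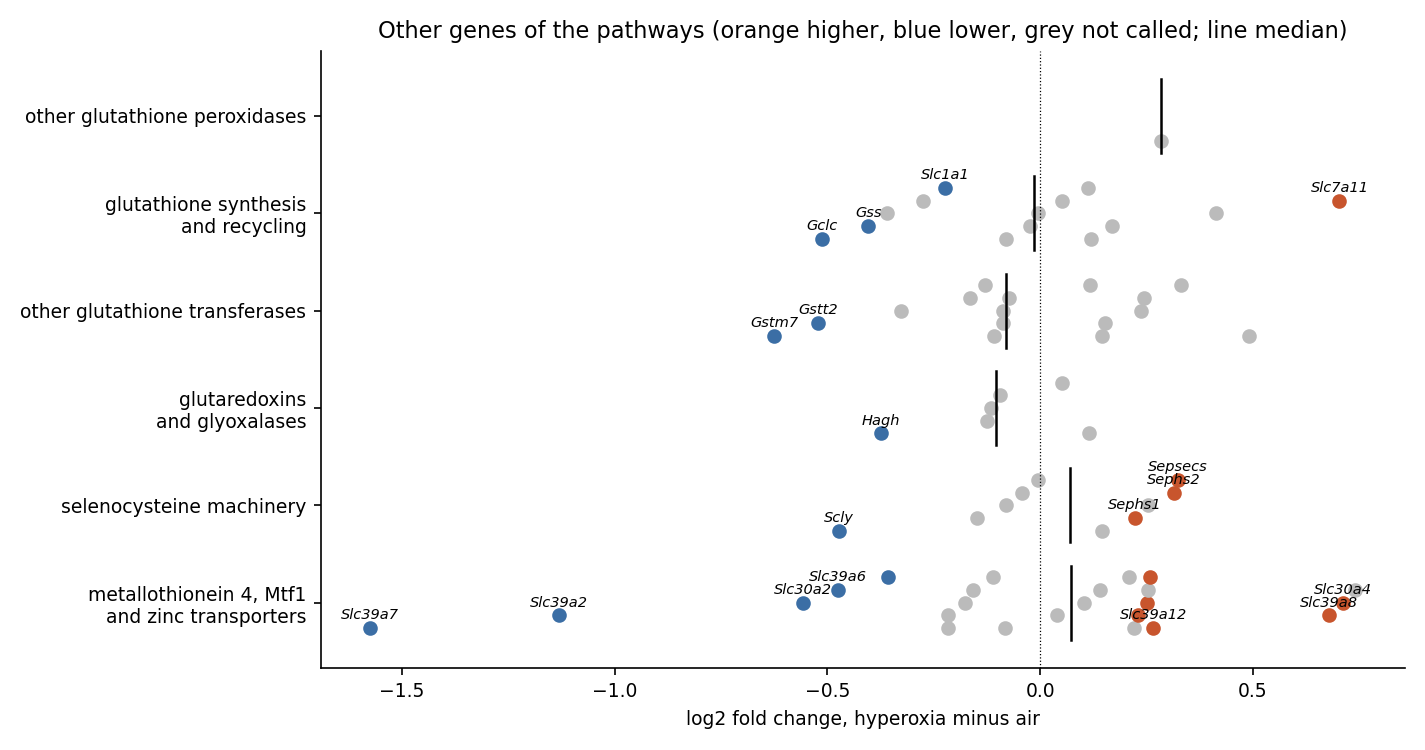
Log2 fold change, hyperoxia minus air, of each tested gene of the 6 pathway lists (rows), with genes called higher in orange, lower in blue and not called in grey, and a line at each list's median. Points are spread vertically for sight only. Called genes named in the text are labelled, from Slc39a7 at -1.58 to Slc30a4 at 0.71.

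Some markers of the cell types in the tissue also moved between the groups, and the doubt about the column names applies to their directions too. None of the markers was listed at 0. The counts below stand beside 14.9% of all genes tested called higher and 15.6% called lower. Of 10 astrocyte markers, 4 were higher and 2 lower, and their summed level was 212175 to 223035 in air and 250280 to 268175 in hyperoxia, with Slc1a2 the highest marker. The higher ones were Aqp4 at 0.53, Slc1a2 at 0.51, Aldh1l1 at 0.53 and Slc4a4 at 0.39 on the log2 scale, and the lower ones Aldoc at -0.37 and S100b at -0.40. Slc1a2 weighed heavily in the astrocyte sum, with a mean of 104640 in air and 149380 in hyperoxia. The median log2 fold change of the astrocyte markers was 0.015. Of 8 neuron markers, 5 were lower and 0 higher, and the sum went from between 397162 and 417265 in air to between 297261 and 307051 in hyperoxia. Camk2a weighed heavily in the neuron sum, with a mean of 164568 in air and 116013 in hyperoxia. The 3 neuron markers not called were Syt1 at 0.26, Gad2 at 0.17 and Gad1 at -0.05. Of 8 oligodendrocyte markers 7 were lower, with sums of 222211 to 338616 in air and 151013 to 184151 in hyperoxia. Of 6 fibroblast markers 5 were higher. Microglia had 2 of 9 higher, endothelial cells 4 higher and 2 lower of 8, pericytes 1 of 7 higher, choroid plexus 1 of 8 higher, and red blood cells 1 higher and 1 lower of 5. The part of these shifts in the metallothionein values was not tested.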

How the data were processed

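The authors deposited a table of normalized counts for 6 libraries, which holds whole reads per gene divided by 1 size factor per library (unit signal). The submitters' processing notes name FastQC, STAR 2.5.3a, HTSeq and DESeq2; the sources used here give no genome build, no annotation and no strand setting for counting. The deposited table of the authors' own comparison holds fold changes and p-values and was not used; its name mentions oil, which the labels do not. Reads were recovered from the values, with 100% of them whole within 0.01. Samples were grouped by the labels, and columns by the group in their names. Whether those names carry the right group is in doubt, since sources on the study differ in the direction of transcripts. The sign of all fold changes depends on those names. For Ddt, Grasp, Mal, Camk2a and Slc17a7 the authors' published tables give higher transcript levels in hyperoxia. Under the column names their log2 fold changes were -1.39, -1.13, -1.69, -0.51 and -0.34. Whether the groups were exchanged was not tested.

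Genes with a mean of at least 10 were tested on log2(value + 1) in limma 3.58.1 under R 4.3.3, with its mean-variance trend,, over all 6 libraries without covariates, and p-values were adjusted by Benjamini-Hochberg over 17778 genes. This fold change understates the change of low genes. With 1 mouse per library, limma p-values set the group difference against the spread between these 3 mice per group. That spread is moderated over genes of similar level. Single values used an exact permutation test. The alternatives were edgeR 4.0.16 and DESeq2 1.42.0 on recovered reads, other pseudocounts (0.5, 5), filters (none, 50), scalings, no trend, a length and GC correction (mgcv 1.9.3) and leaving out each library. The scripts were tested on simulated data, where DESeq2 made more false calls than limma and edgeR; the limit set on false calls beforehand was then kept for limma and edgeR only. Identifiers were matched to GENCODE M21 (99.7% found), and shared sequence was searched in windows of 75 bases. Python 3.11.15 with pandas 2.3.3 was used for summaries.

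Members, pathway lists and marker lists were chosen with earlier results of these data known. Named genes were all members, the up to 3 genes of smallest p in each direction of each pathway list, genes that share sequence or exons with a member, and the leading marker of a list set beside a result. The dependence of the calls on hyperoxia 2 was noticed in the data.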

Additional observations from a re-analysis of the deposited data

How the results depend on the processing

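Over 16 alternatives, Mt2 and Mt3 kept their call wherever tested, and Gpx8 and Gstm5 were called in none. Of 159 member values under alternatives, 142 kept direction and side of the threshold, 9 lost a call (all Mt1), 6 gained one and 2 changed sign (both Gpx1). Leaving out 1 library moved the count of all genes called from 5425 to between 3048 and 7756, and of members called from 3 to between 2 and 6 (6 without hyperoxia 2). The other settings gave 4224 to 5828 genes.

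On leaving out 1 library, log2 fold changes ran from -0.80 to -0.34 for Mt1, -0.26 to 0.0548 for Gpx1, 0.16 to 0.63 for Gpx3, -0.36 to -0.0504 for Gpx4 and -0.39 to -0.0018 for Gstm1. Mt1 lost its call at -0.53 with quantile normalization, -0.56 without the limma trend, -0.51 with edgeR (adjusted p = 0.0669) and -0.45 with the length and GC correction (adjusted p = 0.0587). Under that correction Gpx1 changed sign to 0.0768, while Gpx3 at 0.53 (adjusted p = 0.0498) and Gstp1 at 0.25 were called. Mt3 at -0.61 and Mt2 at -1.44 kept their calls there, with smaller changes than -0.82 and -1.64 in the main fit. The cause was not tested.

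No paired analysis was possible because the labels number the animals 1 to 6, so that the groups share no number, and the column numbers name no animal. Depth limits Mt2, at 8 to 47 reads per library, and 3 libraries per group limit all intervals. Litter and chamber are not given per mouse, so these and the exposure cannot be told apart.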
